A study of Mus musculus with 2 samples.

Results

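Voltage-gated sodium and calcium channel genes were described across the neuron types and glia of the aged mouse hippocampus. The members were all genes whose symbol names a sodium channel alpha subunit (Scn genes ending in a), a sodium channel beta subunit (Scn genes ending in b), a calcium channel alpha1 subunit (Cacna1a to Cacna1i), an alpha2delta subunit (Cacna2d), a cytoplasmic beta subunit (Cacnb) or a gamma subunit (Cacng). The rule found 39 of 19059 measured genes, of which 10 encode sodium channel alpha subunits, 4 sodium channel beta subunits, 9 calcium channel alpha1 subunits, 4 alpha2delta subunits, 4 beta subunits and 8 gamma subunits.

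The data were 2 single-cell libraries made with probe-based profiling of fixed RNA from flash-frozen hippocampus of C57BL/6 mice of both sexes. Both groups were 21 months old at the start of 3 months of feeding. The control group ate standard chow, and the treated group ate the same chow with 0.05% tomatidine, a plant steroidal alkaloid. Each library pooled 4 mice, so each group is 1 sample, no test between groups could be made, and every interval below covers counting error only.

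The alpha subunit of a voltage-gated sodium channel forms the pore that carries the upstroke of the action potential, and the beta subunits are single-pass membrane proteins that set its gating and its place in the membrane. Calcium channels are built around an alpha1 pore: Cacna1c and Cacna1d carry L-type, Cacna1a P/Q-type, Cacna1b N-type, Cacna1e R-type and Cacna1g, Cacna1h and Cacna1i T-type current, and alpha2delta and beta subunits bring most of them to the membrane. Most gamma genes encode transmembrane AMPA receptor regulatory proteins (TARPs), which escort glutamate receptors rather than calcium channels.

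The alpha2delta genes Cacna2d1 and Cacna2d2 had their highest levels at opposite ends of the neuron types, as described below, so the 250 bases before their RefSeq transcription starts on GRCm38.p6 were read. The Cacna2d1 window, at chr5:15934441-15934690 (plus strand), ends just before the annotated gene and is shown. The Cacna2d2 window, at chr9:107399630-107399879 (plus strand), lies within the gene as annotated in the reference and is described only. Capitals mark the GC box letters GGGCGG or their reverse complement CCGCCC.
Upstream of Cacna2d1: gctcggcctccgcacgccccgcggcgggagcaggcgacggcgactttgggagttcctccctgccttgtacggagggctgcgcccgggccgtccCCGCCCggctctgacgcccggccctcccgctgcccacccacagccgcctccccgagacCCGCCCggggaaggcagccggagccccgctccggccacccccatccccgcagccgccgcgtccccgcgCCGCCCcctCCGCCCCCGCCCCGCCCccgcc
The Cacna2d1 window held 6 GC boxes, some of them overlapping, and 82.4% of its bases were G or C. The Cacna2d2 window held 1 GC box, with 74.4% G or C. RefSeq promoters were found for 29 member symbols (40 promoters, since 9 members have more than 1), and 14 of these 40 held a GC box (against 32.7% of all 32851 promoters). The TATA box letters TATAAA were in 2 of the 40 (against 12.4% of all promoters). The letters of the right part (GGACAGC) and the left part (TTCAGCA) of the site of the neuronal repressor REST were in 1 (2.50%, against 5.28%) and 3 (7.50%, against 3.81%) of them. Both strands were searched for each motif, and a match is a description of letters, not a binding site.

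There were 15912 cells in the control matrix and 15185 in the tomatidine matrix, of which 15115 and 14502 were kept. Cells were placed in classes by sets of marker genes, and 12.4% and 13.5% carried markers of more than 1 class while 15.5% and 17.9% reached none. The libraries shared 292 cell barcodes. In the 7 neuron types that the description turns on there were 1973 control and 1427 tomatidine granule-like cells of the dentate gyrus, 520 and 504 CA1-like, 238 and 210 CA3-like and 169 and 148 deep-layer-like excitatory neurons, and 137 and 150 Sst-like, 60 and 62 Pvalb-like and 108 and 132 CGE-type-like interneurons (those with markers of the caudal ganglionic eminence lineage such as Vip and Adarb2). Every marker listed for each of these types and found in the files was at least 2-fold higher there than in the other classed cells. Since cells were placed by these same markers, this describes the placing and is no check of the names. Excitatory neurons placed by markers such as Tcf7l2 (50 and 21 cells) were led by Chat, Slc18a3, Tac2 and Pou4f1, which go against the thalamic name their list carried, and they are called the Tcf7l2-marker neurons. Choroid plexus-like cells numbered 204 in control and 15 in tomatidine. A level is given in CPM, in which all UMIs of a class sum to 1000000, first in control and then in tomatidine, and is compared only between classes for the same gene, because the number of probes per gene is not known here. Highest, next and lowest are among these 7 neuron types unless other classes are named. Excitatory or inhibitory neurons that fitted none of these types are not ranked with them.

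The channel genes divided the neuron types in nearly the same way in both libraries. Of the 39 members, 33 had at least 100 UMIs over the 7 neuron types, and 28 of the 33 had the same highest type in both libraries: 7 in CA1-like, 6 in granule-like, 6 in Pvalb-like, 5 in CGE-type-like, 2 in CA3-like, 1 in deep-layer-like and 1 in Sst-like neurons. For 26 of these 28 the highest type stood above the next one in both libraries with 95% counting intervals that left out 0. The exceptions were Cacng6 and Scn8a. These counts were made for the members only, so they do not show whether channel genes differ in this from other genes. In Cacna1e, Cacna1h, Cacna2d1, Cacna2d2, Cacng4, Cacng5, Scn1a, Scn3a, Scn3b and Scn4b the level spanned at least 10-fold from the highest to the lowest type in both libraries. Cacng6, with 2 UMIs in its lowest type in control and 0 in tomatidine, was left out of this list. Cacng5, which is in the list, also had only 2 UMIs in its lowest type in control (Pvalb-like), and 50 in its lowest type in tomatidine (CA1-like).

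**Figure D1:**
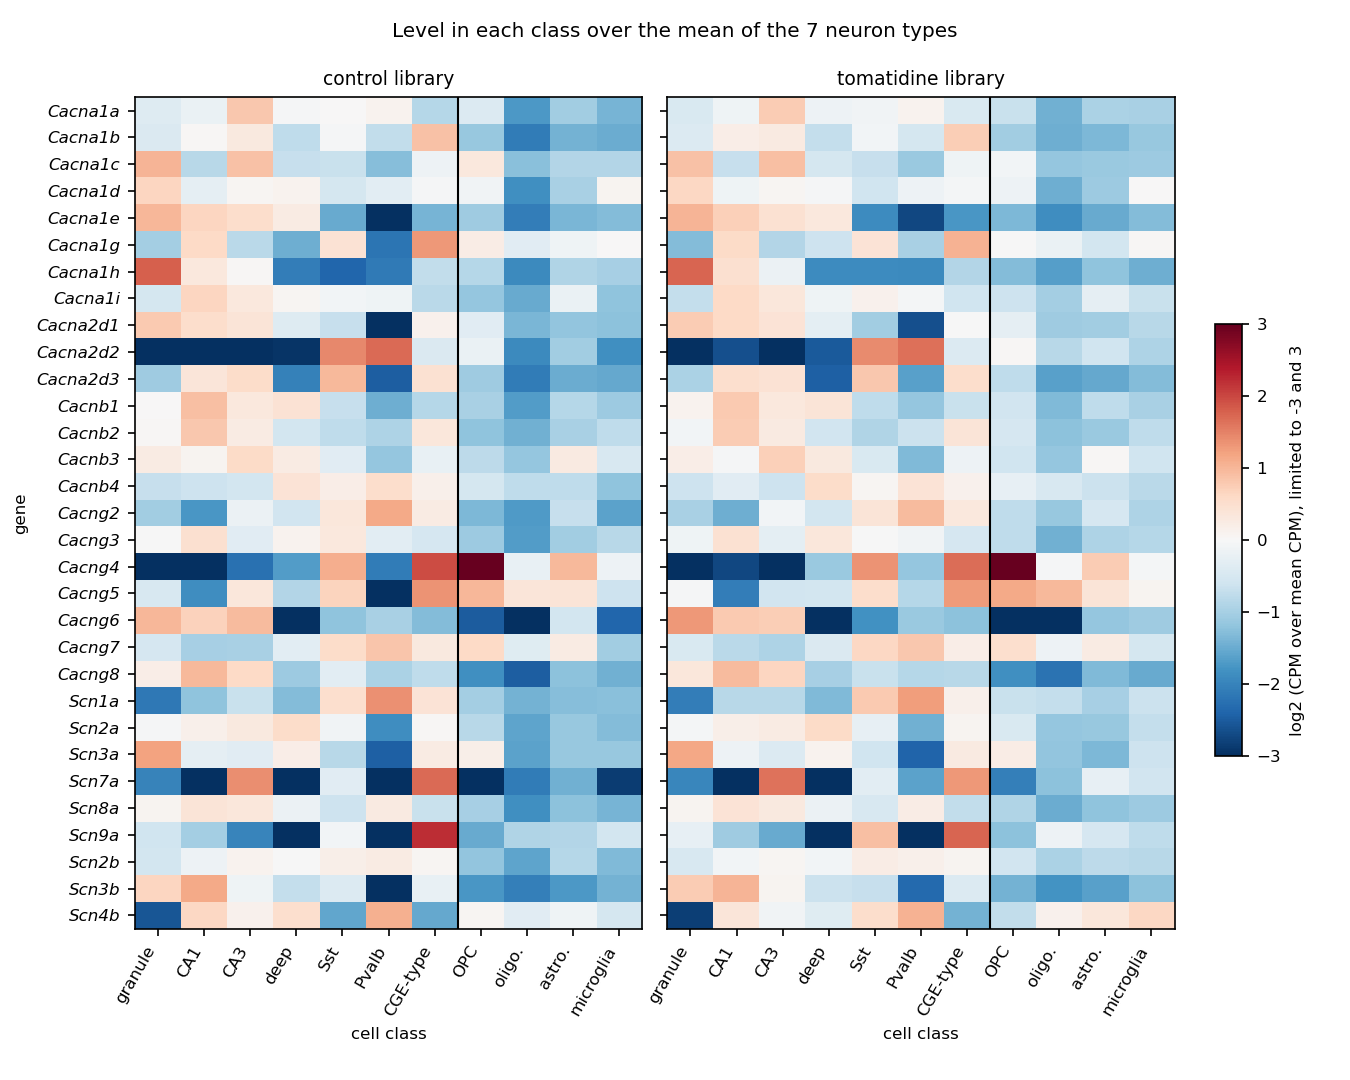
Level of 31 members with at least 100 UMIs over the 7 neuron types, in 11 cell classes of each library, as log2 of the CPM over the mean CPM of the 7 neuron types of that library (the colour scale is limited at both ends). OPC is the oligodendrocyte precursor class, and the line parts neurons from glia. The Pvalb column is dark blue for Cacna1e, Cacna2d1 and Scn3b and red for Cacna2d2 and Scn1a, and the OPC column is dark red for Cacng4.

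Among the sodium channel alpha subunits, Scn1a was higher in the 3 interneuron types than in the other 4 neuron types. Scn1a (chr2:66270778-66440840, minus strand, mm10), whose loss of function causes Dravet epilepsy, was highest in Pvalb-like cells at 574 and 594 CPM. It was next in Sst-like cells at 318 and 427 CPM and in CGE-type-like cells at 295 and 276 CPM, then in CA3-like (140.1 and 139.8 CPM), CA1-like (97.0 and 138 CPM) and deep-layer-like neurons (91.3 and 99.1 CPM), and lowest in granule-like cells at 50.3 and 59.0 CPM. The order of the 7 types was the same in both libraries. Pvalb-like cells were above granule-like cells by a log2 ratio of 3.51 (95% interval 3.41 to 3.61) in control and 3.33 (3.22 to 3.44) in tomatidine, and above Sst-like cells by 0.85 (0.74 to 0.96) and 0.48 (0.37 to 0.58). Over all inhibitory against all excitatory neurons the Scn1a ratio was 3.66-fold and 3.74-fold. The inhibitory sum includes neurons that fitted none of the interneuron types, with 2018 and 4132 Scn1a UMIs. The Tcf7l2-marker neurons, placed among the excitatory cells, held 280 of 923627 and 138 of 492104 UMIs, close to the CGE-type-like level. The 3 of these cells with the most held 43.6% and 59.4% of their Scn1a UMIs.

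Scn2a and Scn3a, which lie beside Scn1a on chromosome 2, showed other patterns. Scn2a (chr2:65620771-65767447, plus strand), the alpha subunit of excitatory axons early in life, was highest in deep-layer-like neurons at 569.8 and 562 CPM and lay between 319.6 and 477 CPM in CA3-like, CA1-like, CGE-type-like, granule-like and Sst-like neurons. It was lowest in Pvalb-like cells at 108 and 139.9 CPM, and this order too was the same in both libraries. Scn3a (chr2:65457118-65567627, minus strand), best known from the developing brain, was highest in granule-like cells at 175 and 179 CPM. The next type, CGE-type-like, stood at 91.3 and 96.9 CPM, CA1-like neurons at 63.5 and 72.6 CPM, and Pvalb-like cells were lowest at 14.1 and 15.3 CPM. Granule-like cells exceeded CA1-like cells for Scn3a by a log2 ratio of 1.46 (1.37 to 1.56) and 1.30 (1.21 to 1.40). Pvalb-like cells were thus the highest type for Scn1a and the lowest for Scn2a and Scn3a.

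Scn8a, the alpha subunit of the mature axon initial segment and nodes, varied least of the 4 main alpha subunits. It was highest in CA1-like neurons at 497 and 516 CPM, where CA3-like neurons followed at 477 and 475 CPM, and lowest in CGE-type-like cells at 238 and 232 CPM. The difference between CA1-like and CA3-like cells was within or just outside the counting interval (log2 0.06, 0.00 to 0.12, and 0.12, 0.06 to 0.18). The remaining chromosome 2 genes were sparse. Scn9a, known from pain neurons, reached 18.0 and 13.7 CPM in CGE-type-like cells against at most 7.63 CPM in the other 6 types. Scn7a, which encodes a sodium-sensing channel that is not gated by voltage, stood at 13.8 and 13.5 CPM in CA3-like and 17.0 and 10.8 CPM in CGE-type-like neurons, which did not differ beyond counting error in either library, against at most 0.208 CPM in CA1-like cells. Outside neurons Scn7a was at 44.8 and 39.7 CPM in fibroblast-like cells, from 17 and 18 UMIs.

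The genes of 3 peripheral or muscle sodium channels were near absent in every class and are given by their UMIs over all kept cells: Scn10a had 1 and 1, Scn11a 6 and 16, and Scn4a 28 and 23.

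The sodium channel beta subunits separated the same types. Scn2b varied less than 2-fold over the 7 types. It ran from 342 and 336 CPM in granule-like cells to 595 and 519 CPM in Pvalb-like and 566 and 545 CPM in Sst-like cells. Pvalb-like and Sst-like cells did not differ beyond counting error. The Tcf7l2-marker neurons lay above this range, from 684 and 341 UMIs. Scn3b was highest in CA1-like neurons at 671 and 592 CPM, next in granule-like cells at 480.1 and 490.5 CPM, and lowest in Pvalb-like cells at 35.8 and 57.3 CPM. Scn4b (chr9:45138395-45154152, plus strand) is the beta subunit linked to resurgent current in fast-firing neurons. Of the 7 types it was highest in Pvalb-like cells at 93.0 and 118 CPM and lowest in granule-like cells at 7.47 and 8.09 CPM. The Pvalb-like level came from 32 of 60 and 33 of 62 cells. The 3 cells with the most held 51.8% and 38.9% of these UMIs, so this rank rests on few cells. Inhibitory neurons that fitted none of the interneuron types (361 and 483 cells) held more Scn4b in both libraries, from 2375 and 1234 UMIs. CA1-like neurons held 68.7 and 72.9 CPM of Scn4b, and Sst-like cells differed between the libraries, at 15.0 and 82.4 CPM.

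**Figure D2:**
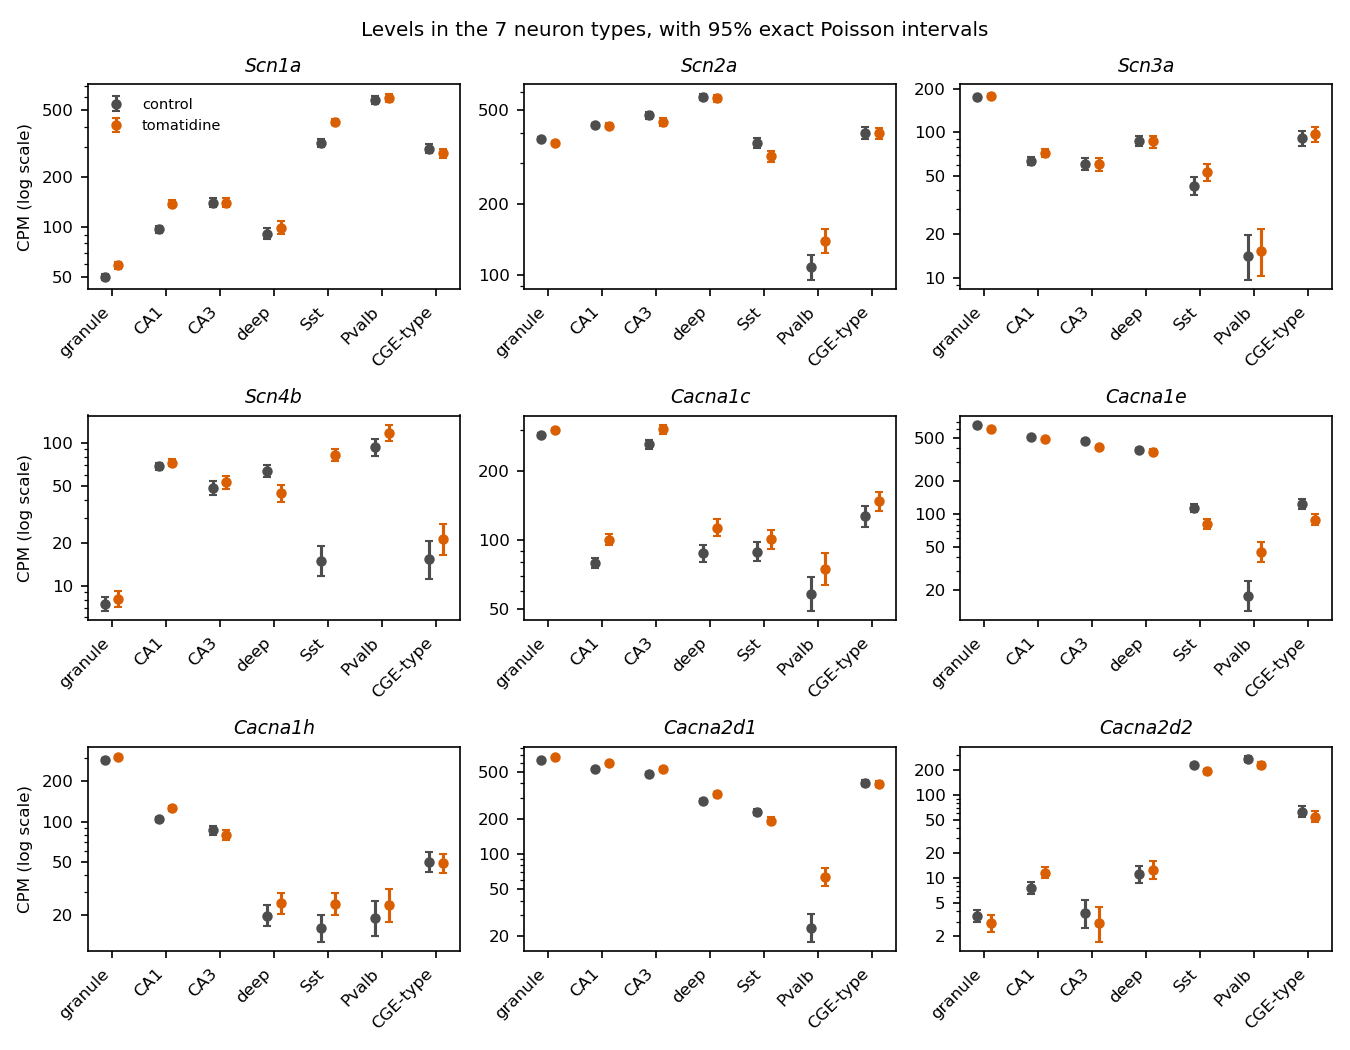
CPM (log scale) of 9 members in the 7 neuron types, control in grey and tomatidine in orange, with 95% exact Poisson intervals that cover counting error only. Scn1a and Cacna2d2 were highest in Pvalb-like cells, where Scn3a, Cacna1c, Cacna1e and Cacna2d1 were at or near their lowest, and Scn4b in Sst-like cells was at 15.0 CPM in control and 82.4 CPM in tomatidine.

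Of the calcium channel pores, the R-type gene Cacna1e (chr1:154390731-154884501, minus strand) had the widest range. It was highest in granule-like cells at 648 and 603 CPM and stepped down through CA1-like (510.2 and 489 CPM), CA3-like (471 and 408 CPM) and deep-layer-like neurons (387 and 373 CPM). All 3 interneuron types were lower, at 123 and 89.0 CPM in CGE-type-like, 114 and 80.4 CPM in Sst-like and 17.9 and 44.9 CPM in Pvalb-like cells. The fold from granule-like to Pvalb-like cells was 36.2 in control and 13.4 in tomatidine. The P/Q-type gene Cacna1a was highest in CA3-like neurons at 140.5 and 158 CPM, above Pvalb-like cells at 85.7 and 100.3 CPM (log2 0.71, 0.49 to 0.94, and 0.66, 0.44 to 0.88). The N-type gene Cacna1b was highest in CGE-type-like cells at 298 and 300.1 CPM, followed by CA3-like neurons at 199 and 217 CPM, and lowest in deep-layer-like neurons at 96.5 and 111 CPM.

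Of the L-type genes, Cacna1c was highest in granule-like and CA3-like neurons and Cacna1d in granule-like neurons. Cacna1c (chr6:118587240-119196418, minus strand), the main L-type pore of brain and of heart and vessel muscle, was at 285 and 301 CPM in granule-like and 261 and 303 CPM in CA3-like neurons. The 2 types were apart by a log2 of 0.13 (0.06 to 0.20) in control and 0.01 (-0.06 to 0.08) in tomatidine. CA1-like neurons held 79.7 and 100.3 CPM, which put granule-like cells above them by 1.84 (1.76 to 1.92) and 1.59 (1.51 to 1.67) on the log2 scale. Cacna1d was highest in granule-like cells at 152 and 170.3 CPM and lowest in Sst-like cells at 67.4 and 73.5 CPM.

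The T-type genes were divided among granule, interneuron and pyramidal cells. Cacna1h was highest in granule-like cells at 291 and 304 CPM, with CA1-like neurons next at 104 and 126 CPM (log2 1.49, 1.42 to 1.56, and 1.27, 1.20 to 1.35) and deep-layer-like, Sst-like and Pvalb-like neurons between 16.1 and 24.5 CPM. Cacna1g was highest in CGE-type-like cells at 155 and 174 CPM, with CA1-like neurons at 95.3 and 125 CPM and granule-like cells at 30.6 and 33.9 CPM. Cacna1i was highest in CA1-like neurons at 140.5 and 158 CPM, ahead of CA3-like neurons at 112 and 131 CPM. The retinal L-type gene Cacna1f had 13 and 24 UMIs over all kept cells.

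The alpha2delta subunits gave the sharpest contrast. Cacna2d1 (chr5:15934691-16374511, plus strand), a binding site of gabapentin, was highest in granule-like cells at 636 and 678 CPM, next in CA1-like cells at 532 and 601 CPM, and lowest in Pvalb-like cells at 23.5 and 64.0 CPM. Cacna2d2 (chr9:107399612-107529343, plus strand), which binds the same drug, was highest in Pvalb-like cells at 273 and 228 CPM and next in Sst-like cells at 231 and 193 CPM. CGE-type-like cells held 63.1 and 54.7 CPM of it, and no excitatory type exceeded 12.6 CPM, with 3.56 and 2.88 CPM in granule-like cells. Pvalb-like cells exceeded granule-like cells 76.8-fold and 79.2-fold for Cacna2d2, and all inhibitory neurons exceeded all excitatory neurons 23.2-fold and 20.4-fold. The Tcf7l2-marker neurons, though placed among the excitatory cells, held 228 and 238 CPM. Cacna2d3 was highest in Sst-like cells at 252 and 228 CPM and was lowest in Pvalb-like cells in control (23.0 CPM) and in deep-layer-like neurons in tomatidine (23.5 CPM). Thus Sst-like and Pvalb-like cells shared Cacna2d2 but were at opposite ends for Cacna2d3 in control.

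Among the cytoplasmic beta subunits the types differed less. Cacnb1 was highest in CA1-like neurons at 342 and 298 CPM and lowest in Pvalb-like cells at 66.1 and 77.8 CPM, and Cacnb2 was also highest in CA1-like neurons at 142 and 146 CPM. Cacnb3 was highest of the 7 types in CA3-like neurons at 346 and 404 CPM and lowest in Pvalb-like cells at 105 and 98.8 CPM. Cacnb4 went the other way, at 378 and 313 CPM in Pvalb-like and 349 and 349.7 CPM in deep-layer-like neurons against 163 and 153 CPM in granule-like cells. In the Tcf7l2-marker neurons Cacnb3 reached 1077 and 1477 CPM, above CA3-like neurons by 1.64 (1.53 to 1.74) and 1.87 (1.75 to 1.99) on the log2 scale, from 50 and 21 cells of which 80.0% and 85.7% held a UMI. The 3 cells with the most held 35.7% of these UMIs in control and 66.9% in tomatidine.

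The TARPs were also shared out between pyramidal neurons and interneurons. Cacng8, the main hippocampal TARP, was highest in CA1-like neurons at 1117 and 1007 CPM, then in CA3-like (865 and 822 CPM) and granule-like cells (662 and 659 CPM), and lowest in deep-layer-like neurons at 267 and 262 CPM. Cacng2, or stargazin, was highest in Pvalb-like cells at 223 and 185 CPM and lowest in CA1-like neurons at 30.2 and 34.7 CPM. Cacng7, the neighbour of Cacng8 on chromosome 7, was also highest in Pvalb-like cells at 414 and 417 CPM and stood at 117 and 136 CPM in CA1-like neurons. Cacng3 varied less than 2-fold over the 7 types, from 79.7 and 91.3 CPM in CGE-type-like to 156 and 178 CPM in CA1-like cells. Of the 7 types Cacng5 was highest in CGE-type-like cells at 49.2 and 35.3 CPM, and Cacng6 did not exceed 7.51 CPM in any of them. The Tcf7l2-marker neurons held more Cacng5 than CGE-type-like cells in both libraries, from 107 and 44 UMIs. Cacng1, the skeletal muscle gamma subunit, had 23 and 27 UMIs over all kept cells.

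Outside neurons, Cacng4 set the oligodendrocyte precursors apart. This TARP (chr11:107732357-107794557, minus strand) was at 740.3 CPM in control and 607 CPM in tomatidine precursor-like cells (244 and 258 cells), against 14.1 and 15.6 CPM in oligodendrocyte-like, 32.1 and 27.1 CPM in astrocyte-like, 14.8 and 15.3 CPM in microglia-like and 1.87 and 1.79 CPM in granule-like cells. The log2 ratio of precursors over oligodendrocytes was 5.72 (5.55 to 5.89) and 5.29 (5.12 to 5.45), or 52.6-fold and 39.0-fold. A Cacng4 UMI was found in 94.7% and 94.2% of precursor-like cells, at median depths of 6720 and 6492 UMIs per cell, against 5.80% and 7.48% of oligodendrocyte-like cells, at 5358 and 5181 UMIs. Among the 7 neuron types Cacng4 was highest in CGE-type-like cells at 64.1 and 51.4 CPM. The Tcf7l2-marker neurons held more of it, from 80 and 49 UMIs in 50 and 21 cells.

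Most other members lay within the range of neuronal genes in glia. A set of 11 neuronal reference genes (among them Snap25, Syt1, Syn1, Rbfox3, Nrgn, Thy1, Stmn2, Slc17a7, Camk2a and Gad1), used to show how much neuronal RNA the glial classes held, stood in oligodendrocyte-like cells at medians of 33.7% and 35.2% of their level in all neurons, and the members with at least 100 UMIs at medians of 33.4% and 42.0%, with 9 and 10 of 31 above the highest reference gene. Slc17a7, Camk2a and Gad1 were also markers used to place neurons. Cells in which enough neuron markers were raised were left out of the glial classes as mixed, so the glial levels of these genes are partly set by the placing. In microglia-like cells the reference medians were 41.7% and 58.6%, and the member medians 45.1% and 58.5%, with 5 and 6 of 29 above the highest reference gene. In astrocyte-like cells they were 44.7% and 46.6% against 47.6% and 52.1%, but Camk2a was higher there than in neurons, at 173% and 172%, and gives no measure of neuronal RNA in that class. In precursor-like cells the members stood at 57.0% and 69.7% against 42.4% and 54.4%, and 12 and 5 of the 29 members exceeded the highest reference gene.

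In precursor-like cells Cacng4, Cacng5, Cacng7, Cacna1g and Cacna2d2 exceeded the highest reference gene in both libraries. Cacng7 stood at 192% and 164% of its neuron level there, and Cacna2d2 at 166% and 156%. In oligodendrocyte-like cells Cacna2d4, Cacng4, Cacng5, Cacng7, Cacna1g, Cacnb4, Scn1a, Scn4b and Scn9a did so, with Cacng7 at 98.8% and 104%, and in microglia-like cells Cacna1d, Cacna1g, Cacng4 and Scn1a. The highest reference gene in oligodendrocyte-like cells stood at 53.9% and 73.9%. Scn9a, from 53 and 87 UMIs, was at 58.0% and 104% and Scn4b at 59.3% and 114%, both close to it in control. Cacnb4, at 67.3% and 76.5%, was close to it in tomatidine. These percents have no interval here. Cacna1d in microglia-like cells was at 102 and 111 CPM, over astrocyte-like cells by a log2 of 1.05 (0.86 to 1.24) and 1.10 (0.93 to 1.27). Cacna2d4, the alpha2delta subunit known from the retina, was listed at 4.47 and 5.64 CPM in oligodendrocyte-like cells and at most 1.81 CPM in precursors, astrocytes and microglia and 0.679 CPM in the 7 neuron types. Cacna1c reached 455 and 452 CPM in mural-like cells, the contractile cells of vessel walls (34 and 41 cells, 59 and 63 UMIs), above endothelial-like cells at 77.0 and 60.7 CPM (log2 2.56, 1.96 to 3.18, and 2.90, 2.30 to 3.51). The T-type gene Cacna1h was at 247 and 122 CPM in the same cells, from 32 and 17 UMIs. Cacna1c was at 177 and 154 CPM in precursors against 59.1 and 72.9 CPM in oligodendrocytes, and exceeded the highest reference gene in precursors in control but not in tomatidine.

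**Figure D3:**
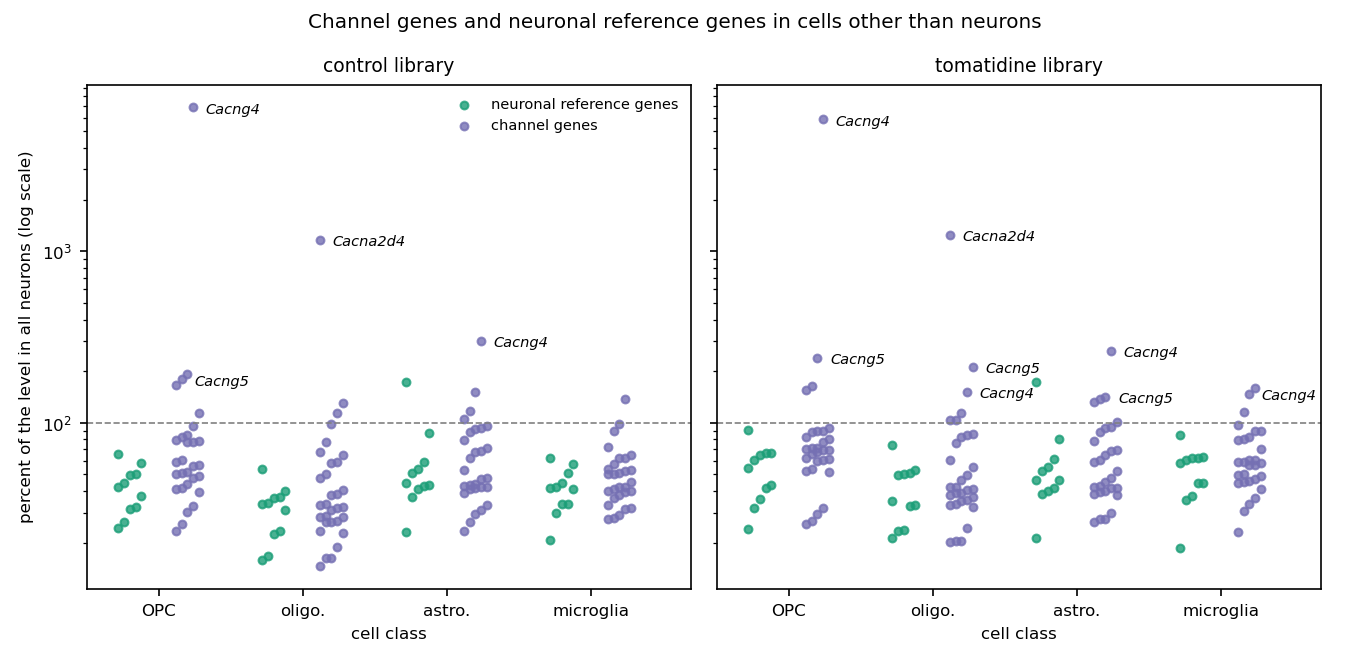
Level in precursor-like (OPC), oligodendrocyte-like, astrocyte-like and microglia-like cells as a percent of the level in all neurons (log scale), for neuronal reference genes (green) and channel genes of 100 or more UMIs there (purple). The dashed line is the neuron level, and most channel genes lay among the reference genes while Cacng4 in precursors and Cacna2d4 in oligodendrocytes lay far above.

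The libraries were then compared class by class to describe the channel genes under tomatidine. A gene was read in a class if it had at least 100 UMIs there over both libraries, and was counted as higher or lower if its log2 ratio was at least 0.32 either way. Beside each count stands the share of all genes so counted. Over the neuron types the members' median ratio lay between -0.03 and 0.28. In granule-like cells, the largest class of neurons, 2 of 31 members were higher (background 4.41%) and 0 lower (1.10%), and the median log2 ratio of the members was 0.03, the same as over all genes (0.03). Of the 2 higher members, the one whose counting interval left out 0 was Cacng6, at 5.04 and 7.51 CPM (log2 0.58, 0.29 to 0.86). Over all 31 members, past the threshold or not, the interval lay above 0 for 12 and below 0 for 4.

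In CA1-like neurons 7 of 29 members were higher (background 16.2%) and 1 lower (1.90%), and their median was 0.17 against 0.06 over all genes. Scn1a was at 97.0 CPM in control and 138 CPM in tomatidine (log2 0.51, 0.42 to 0.61). The other members that were higher with intervals leaving out 0 were Cacna2d2 (log2 0.60), Cacna1g (0.39), Cacna1b (0.33), Cacna1c (0.33) and Cacna1d (0.33), and Cacng5 was lower, at 5.29 and 3.46 CPM (-0.61, -1.14 to -0.10). Markers of Pvalb cells summed to 30.9 and 60.5 CPM in these cells (6 of 6 higher), and their part in the Scn1a difference was not tested. In CA3-like neurons 1 of 28 members was higher (8.82%) and 1 lower (3.18%): Cacna1g was at 35.5 and 46.0 CPM (0.37, 0.12 to 0.62), and Cacng5 at 24.4 and 9.78 CPM (-1.32, -1.77 to -0.89). The Cacng5 UMIs came from 37 of 238 and 15 of 210 cells.

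In deep-layer-like neurons 3 of 28 members were higher (8.05%) and 2 lower (4.14%), and their median was 0.01 against 0.02 over all genes. Cacna1g was at 22.8 and 54.9 CPM (log2 1.27, 0.97 to 1.56), Cacng3 at 121 and 163 CPM (0.44) and Cacna1c at 87.4 and 113 CPM (0.37). Scn4b was at 63.5 and 44.3 CPM (-0.52) and Cacna2d3 at 31.4 and 23.5 CPM (-0.42). The deep-layer markers themselves summed to 2144 and 1281 CPM, with 6 of 7 lower in tomatidine, and the part of this in the channel values was not tested. With both sets of cell thresholds Cacna1g turned to -0.43, and under the stricter gate Scn4b turned to 0.80 and Cacna2d3 to 0.30. Both sets of thresholds also ask for at most 6000 genes and below 10% mitochondrial UMIs per cell. The ceiling on genes takes out the deepest cells, in a class with median depths of 37081 and 29709.5 UMIs per cell. The numbers of cells left are not given here. The stricter gate asks for at least 4 raised markers of a class rather than 3.

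In Sst-like cells 5 of 30 members were higher (11.5%) and 5 lower (6.14%), and the median was -0.03 against 0.04. Scn4b was at 15.0 CPM in control and 82.4 CPM in tomatidine (log2 2.46, 2.09 to 2.85). It came from 21 of 137 and 40 of 150 cells, and the 3 cells with the most held 52.2% and 53.4% of the UMIs. Other higher members were Cacna1h (0.60), Scn1a (0.43), Cacna1i (0.42) and Cacna1g (0.40), and lower ones included Cacng5 (-0.52), Cacna1e (-0.50), Cacng8 (-0.49) and Scn3b (-0.35). Markers of the Sst list summed to 12396 and 7697 CPM (6 of 6 lower) and those of the Pvalb list to 458 and 704 CPM (4 of 6 higher) in these cells. Under the stricter gate the direction turned for Scn4b (-0.86), Cacna1e (0.14), Cacna1i (-0.02) and Cacng5 (0.09). With both sets of cell thresholds it turned for Scn4b (-2.05), Cacna1h (-1.90), Cacna1e (0.23), Cacng8 (0.03) and Scn3b (0.01), and Cacng5 came to 0.00.

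In Pvalb-like cells 12 of 25 members were higher (12.8%) and 0 lower (6.40%), and their median was 0.28 against 0.02 over all genes. The largest ratios were in genes with low levels in these cells: Cacna1g was at 13.6 and 42.5 CPM (log2 1.64, 1.04 to 2.27), Cacna2d1 at 23.5 and 64.0 CPM (1.45, 0.98 to 1.93), Cacna1e at 17.9 and 44.9 CPM (1.33, 0.79 to 1.89), Cacna2d3 at 23.0 and 41.5 CPM (0.85) and Scn3b at 35.8 and 57.3 CPM (0.68). Cacng3 (0.43), Scn2a (0.37), Cacna1c (0.36), Cacna1b (0.35), Cacna1d (0.35) and Scn4b (0.34) were also higher. Excitatory neuron markers summed to 362 and 832 CPM in these 60 and 62 cells, and 7 of 7 were higher in tomatidine. Markers of the Pvalb list summed to 3869 and 3017 CPM (5 of 6 lower and 1 higher). The part of these differences in the channel values was not tested. The members' median was -0.06 with both sets of cell thresholds, over 8 members, and Cacna1c (-0.62) and Scn2a (-0.31) turned. Scn4b came to -0.02 under the stricter gate and Cacng3 to -0.30 over all deposited cells.

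In CGE-type-like cells 3 of 29 members were higher (10.5%) and 2 lower (6.63%), and the median was 0.00 against 0.02. Cacna1a was at 44.1 and 67.8 CPM (log2 0.62, 0.30 to 0.95) and Cacna1i at 50.9 and 68.7 CPM (0.43). Cacna1e was at 123 and 89.0 CPM (-0.47) and Cacng5 at 49.2 and 35.3 CPM (-0.48). Markers of the CGE-type list summed to 9494 and 7422 CPM in these cells (6 of 8 lower and 2 higher). The part of this in the channel values was not tested. With both sets of cell thresholds Cacna1i turned to -0.36 and Cacng5 to 0.93.

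**Figure D4:**
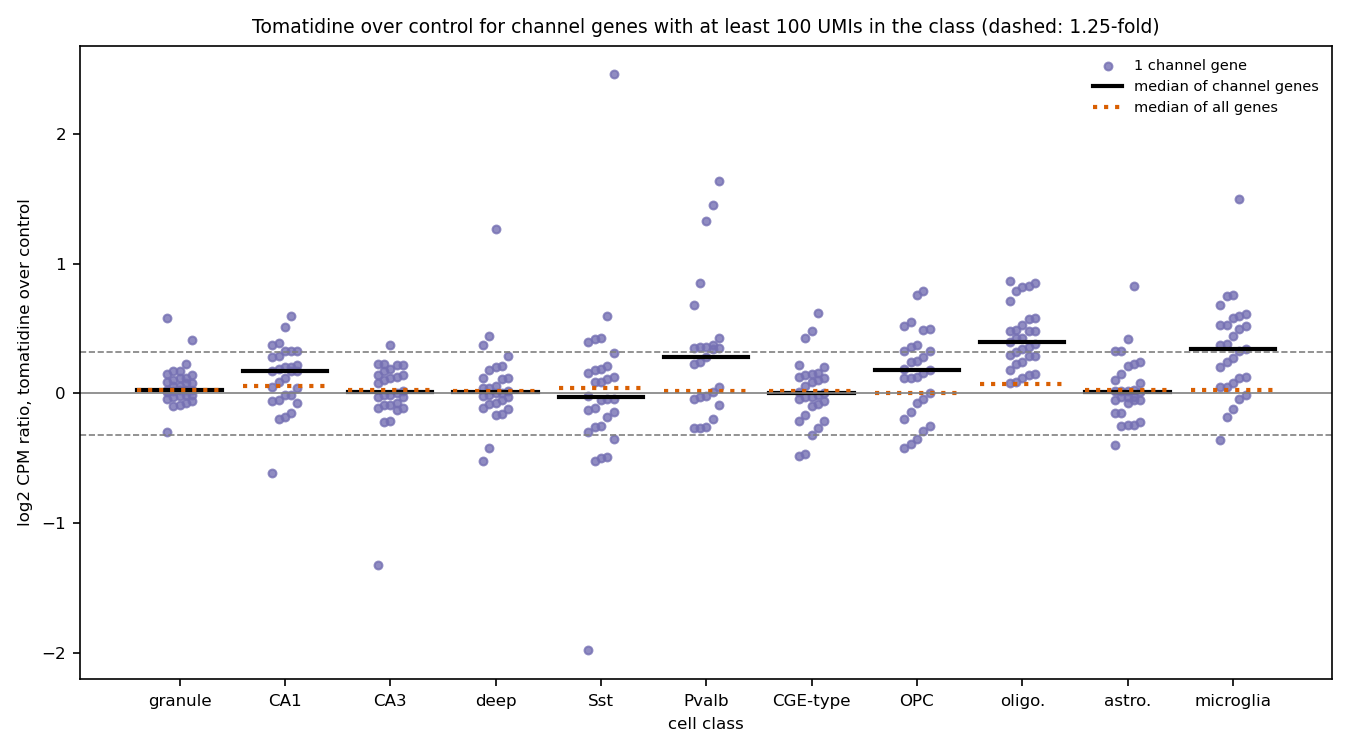
Log2 CPM ratio of tomatidine over control for each channel gene read there (points), with the median of the channel genes (black) and of all genes (orange dots), in 7 neuron types and 4 glial classes; dashed lines mark a log2 ratio of 0.32 either way. The members' medians were 0.28 in Pvalb-like, 0.40 in oligodendrocyte-like and 0.34 in microglia-like cells and between -0.03 and 0.18 in the other classes.

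In oligodendrocyte-like, microglia-like and precursor-like cells the medians of both the channel genes and the neuronal reference genes were above 0. In oligodendrocyte-like cells (3294 and 2634) 31 of 31 members had a ratio above 0, 20 were higher past 0.32 (17.9%) and 0 lower (4.60%), and the median was 0.40 against 0.07 over all genes. The share of all genes with a ratio above 0 is not given here. The members with intervals leaving out 0 included Cacna2d2 (log2 0.87), Scn1a (0.85), Scn4b (0.83), Scn9a (0.82), Cacna1b (0.79), Cacna1i (0.71), Cacna1d (0.58), Cacna1g (0.57), Scn2b (0.53), Cacng2 (0.49), Cacna1a (0.48), Cacna2d3 (0.48), Scn3a (0.48), Cacna2d1 (0.43), Cacng3 (0.43), Scn8a (0.40), Scn2a (0.38) and Cacna1h (0.36). Of the 11 neuronal reference genes 9 were also above 0, with a median of 0.37, Gad1 at 59.4 and 113 CPM the highest (0.93) and Slc17a7 at 401 and 353 CPM the lowest (-0.18). Markers of Pvalb cells summed to 86.1 and 159 CPM and of Sst cells to 148 and 253 CPM, while those of excitatory neurons stood at 1168 and 1196 CPM. The 10 oligodendrocyte markers summed to 45608 and 36586 CPM (10 of 10 lower). Cacna1h came to 0.00 with high doublet scores kept.

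Microglia-like cells showed a similar set: 16 of 29 members were higher (15.9%) and 1 lower (9.47%), and their median was 0.34 against 0.03. Scn4b was at 31.1 and 87.9 CPM (log2 1.50, 1.20 to 1.80), with 52.3% and 61.3% of its UMIs in 3 cells, and Scn1a at 93.8 and 159 CPM (0.76). Cacna1i (0.75), Cacna2d2 (0.68), Cacna1a (0.61), Cacng2 (0.60), Scn3a (0.58), Scn2a (0.53), Cacng7 (0.53), Cacna1b (0.52), Cacna2d1 (0.50), Cacna1g (0.44), Scn2b (0.37) and Scn8a (0.34) were also higher, and Cacna1h was lower (-0.36). The neuronal reference genes had a median of 0.30, with 9 of 11 above 0. Microglia markers summed to 34413 and 26761 CPM (9 of 9 lower) and inhibitory neuron markers to 309 and 439 CPM (6 of 7 higher). With both sets of cell thresholds Cacna2d2 (-0.25) and Scn8a (-0.14) turned, as did Scn8a (-0.32) and Scn2b (-0.09) as a mean over cells and Cacna2d1 (-0.17) with mixed cells kept.

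In precursor-like cells 10 of 29 members were higher (12.3%) and 3 lower (12.2%), and their median was 0.18 against 0.00 over all genes and 0.27 over the reference genes, of which 10 of 11 were above 0. The higher members included Cacnb2 (log2 0.79), Cacna1i (0.76), Cacng3 (0.55), Scn2b (0.52), Scn1a (0.50), Cacng2 (0.49), Scn2a (0.36), Cacna2d3 (0.33) and Cacnb1 (0.33), and lower were Scn4b (-0.42) and Cacna1e (-0.39). Cacng4 itself was not past the threshold of 0.32 (-0.29, -0.39 to -0.19), in cells whose 10 precursor markers summed to 10527 and 7943 CPM (10 of 10 lower). Scn4b turned to 1.05 with both sets of cell thresholds and to 0.83 as a mean over cells, and Cacna2d3 came to -0.02 with both sets. In astrocyte-like cells 4 of 29 members were higher (6.98%) and 1 lower (3.29%), and their median was 0.01 against 0.03: Scn4b (0.83), Scn1a (0.42), Cacna1a (0.33) and Cacng3 (0.33) against Cacng5 (-0.40). The reference genes had a median of 0.06 there. What part neuronal RNA had in the glial values was not tested.

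Genes that work with the channels were read from 4 lists of 44 genes, of which 40 were in the files. They hold sodium channel partners such as ankyrins and the intracellular Fgf genes, calcium channel partners such as the Rims genes, the leak channel complex of Nalcn, and AMPA receptor subunits and their other auxiliary proteins. In granule-like cells 0 of 34 were higher (background 4.41%) and 0 lower (1.10%) past the same threshold, with a median log2 ratio of 0.03. At the ends of the ranking there, Rims2, a presynaptic scaffold, was at 77.1 and 69.6 CPM (-0.15) and Cnih3 at 236 and 212 CPM (-0.15), and Stac2 was at 5.22 and 6.31 CPM (0.27), Ahnak at 5.76 and 6.93 CPM (0.27) and Shisa9 at 166 and 191 CPM (0.21). In CA1-like neurons 5 of 35 were higher (16.2%) and 1 lower (1.90%), in CA3-like 1 of 33 (8.82%) and 1 (3.18%), and in deep-layer-like 2 of 35 (8.05%) and 1 (4.14%). In Sst-like cells 4 of 33 were higher (11.5%) and 2 lower (6.14%), in Pvalb-like 6 of 31 (12.8%) and 0 (6.40%), and in CGE-type-like 4 of 33 (10.5%) and 4 (6.63%). In oligodendrocyte-like cells 18 of 35 partner genes were higher (17.9%) and 0 lower (4.60%), and in microglia-like 9 of 35 (15.9%) and 2 (9.47%). In precursor-like cells 6 of 33 were higher (12.3%) and 4 lower (12.2%), and in astrocyte-like 2 of 36 (6.98%) and 2 (3.29%). Over all 4 lists the median log2 ratio was 0.35 in oligodendrocyte-like and 0.21 in microglia-like cells, and between 0.01 and 0.09 in the others except deep-layer-like neurons (-0.03).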

How the data were processed

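Hippocampal cells of both groups were measured as 1 library each. The deposited matrices hold UMI counts per gene and cell, made by the authors with Cell Ranger (version 8.0.0 per the labels, 7.1.0 per the file headers) on mm10, with no normalisation. A cell was kept if it had 500 or more UMIs and over 250 genes, if its log10 gene number divided by its log10 UMI number exceeded 0.8, and if mitochondrial genes took below 20% of its UMIs, and the 2% with the highest Scrublet scores were removed, because Scrublet's own threshold called 0 and 1 cells. A marker was raised in a cell if it had at least 2 UMIs and a share above its share of all UMIs. A cell was placed in the class with the most raised markers, at least 3, and was left out as mixed if a second class tied or reached at least 3 and 0.5 of that number. Of the 145 marker symbols 142 were in the files.

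UMIs were summed per class and library and divided by the class total (CPM). CPM intervals are exact Poisson and ratio intervals exact conditional binomial, at 95%, for counting error only. With 1 library per group no test was made. All members were accounted for: those with at least 100 UMIs in a class are named with values, tomatidine ratios are named where they passed a log2 of 0.32 either way with an interval leaving out 0, and partner genes where they were among the 3 at each end of the ranking in granule-like cells. Values of some genes that this rule names are not reported here. The members and lists were chosen with earlier results of these data known. Ratios and their intervals were tested before use on simulated Poisson counts drawn from the granule-like class. The placing of cells in classes and the other steps were not tested in this way. Python 3.11.15, numpy 2.4.6, scipy 1.17.1, pandas 2.3.3, scanpy 1.11.5 and R 4.3.3 were used, with edgeR 4.0.16 for TMM factors as an alternative scaling.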

Additional observations from a re-analysis of the deposited data

Results flagged for a closer look

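Some members were past a log2 ratio of 0.32 in opposite directions in different cell classes, and in each case the difference between the classes was not tested, since each group is 1 library. The log2 ratio of tomatidine over control of Scn4b was 2.46 in Sst-like, 0.34 in Pvalb-like, 0.83 in oligodendrocyte-like, 0.83 in astrocyte-like and 1.50 in microglia-like cells, against -0.52 in deep-layer-like and -0.42 in precursor-like cells. Cacna1e was at 1.33 in Pvalb-like cells and at -0.50 in Sst-like, -0.47 in CGE-type-like and -0.39 in precursor-like cells. In Pvalb-like cells the 3 cells with the most Cacna1e held 33.3% of its UMIs in control and 47.9% in tomatidine. Cacna2d3 was at 0.85 in Pvalb-like, 0.33 in precursor-like and 0.48 in oligodendrocyte-like cells and at -0.42 in deep-layer-like neurons. Cacna1h was at 0.60 in Sst-like and 0.36 in oligodendrocyte-like cells and at -0.36 in microglia-like cells. Scn3b was at 0.68 in Pvalb-like and -0.35 in Sst-like cells. Many of these ratios did not keep their direction under other cell filters or gates. Scn4b turned in Sst-like (-0.86 and -2.05), Pvalb-like (-0.02), deep-layer-like (0.80) and precursor-like cells (1.05 and 0.83), Cacna1e (0.23 and 0.14), Cacna1h (-1.90) and Scn3b (0.01) in Sst-like cells, Cacna2d3 in deep-layer-like (0.30) and precursor-like cells (-0.02), and Cacna1h came to 0.00 in oligodendrocyte-like cells.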

How the results depend on the processing

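The count of members with the same highest neuron type in both libraries ranged from 28 to 31 over the alternatives. The members' median log2 ratio of tomatidine over control left the median of its members' counting intervals in 3 classes: in Pvalb-like cells it was -0.06 with both sets of cell thresholds; in oligodendrocyte-like cells 0.26 over all deposited cells, 0.23 with both sets of thresholds, 0.26 with high doublet scores kept, 0.30 with mixed cells kept and 0.27 as a mean over cells; and in microglia-like cells 0.17, 0.08 and 0.11 with both sets of thresholds, mixed cells kept and a mean over cells. Within those intervals it ranged from -0.09 to 0.14 in Sst-like cells, on both sides of 0, and from 0.06 to 0.18 in precursor-like cells. Of 704 single-gene ratios under the alternatives 519 moved by less than the counting interval, 157 moved further and 28 reversed. With both sets of thresholds the reversed ratios were Cacna1g -0.43 in deep-layer-like neurons, Cacna1e 0.23, Cacna1h -1.90, Cacng5 0.00, Cacng8 0.03, Scn3b 0.01 and Scn4b -2.05 in Sst-like cells, Cacna1c -0.62 and Scn2a -0.31 in Pvalb-like cells, Cacna1i -0.36 and Cacng5 0.93 in CGE-type-like cells, Cacna2d3 -0.02 and Scn4b 1.05 in precursor-like cells and Cacna2d2 -0.25 and Scn8a -0.14 in microglia-like cells. Under the stricter gate they were Cacna2d3 0.30 and Scn4b 0.80 in deep-layer-like neurons, Cacna1e 0.14, Cacna1i -0.02, Cacng5 0.09 and Scn4b -0.86 in Sst-like cells and Scn4b -0.02 in Pvalb-like cells. The others were Cacng3 -0.30 in Pvalb-like cells over all deposited cells, Scn4b 0.83 in precursor-like and Scn8a -0.32 and Scn2b -0.09 in microglia-like cells as a mean over cells, Cacna1h 0.00 in oligodendrocyte-like cells with high doublet scores kept and Cacna2d1 -0.17 in microglia-like cells with mixed cells kept. Of 210 class ratios 2 reversed: Cacna1c in mural-like over granule-like cells was -0.59 in control and -0.80 in tomatidine with mixed cells kept. The cause was not tested for any of these. No paired analysis was possible because each group is 1 pooled library. Of the classes compared between libraries the Pvalb-like had the fewest cells (60 and 62), and the mural-like (34 and 41) and Tcf7l2-marker (50 and 21) levels rest on fewer still.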
